A study of Mus musculus with 48 samples.

Results

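The NRF2 antioxidant and iron genes are a set of 39 mouse genes chosen by name: the regulators Nfe2l2, Keap1 and Sqstm1 and the enzymes, carriers and ferritins commonly counted among their outputs. Of the 39, 38 were among the 11313 gene symbols of both the exon and the intron table. Gstp1, a glutathione transferase, was not analysed here. The members were followed in NIH 3T3 cells, an immortalised line of mouse fibroblasts, in 48 libraries in 4 groups of 12. The groups were total RNA and newly made RNA, pulled out through the uridine analogue 4sU, each from cells carrying a control hairpin (shCTRL) and from cells carrying a hairpin against Bmal1 (shBmal1), a core clock gene that the tables list as Arntl. Cells of every group had been synchronised with horse serum at 50% for 2 h, and 1 library per group was made every 2 h from 24 to 46 h after serum. The labels name no second line per hairpin and no separate clones, so hairpin and cell line cannot be told apart, and p-values measure the spread among single libraries taken at different times.

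NRF2, the protein of Nfe2l2, is a transcription factor that is made continually and destroyed through KEAP1, an adaptor of a ubiquitin ligase. Oxidants and electrophiles modify KEAP1, NRF2 then accumulates, pairs with small MAF proteins and binds antioxidant response elements (ARE) near genes for glutathione and thioredoxin enzymes, NADPH supply, quinone reduction, heme breakdown and iron storage. Ferritin, the iron store, is a shell of heavy and light chains, and its messages are also held back in translation by iron regulatory proteins when iron is scarce.

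The promoters of the members show which of them carry the letters of the ARE close to a start site. RefSeq promoter windows (GRCm38.p6, 250 bases before to 50 bases after a start site, 300 in all) were found for 33 of the 38 members. Hmox1, Gclc, Gsr, Prdx6 and Gsta4 had none, so their promoters were not searched. The ARE core TGACNNNGC, searched on both strands, was in the windows of 11 of these 33 genes and in 16.9% of the 8641 genes of the tables with a window. The E-box CACGTG, the palindrome that the BMAL1 and CLOCK pair binds, was in the windows of 0 of the 33 and of 12.2% of the 8641. The AP-1 motif TGANTCA, which can share bases with the ARE core, was in the windows of 4 members (Srxn1, Prdx1, Gstm5 and Me1) and of 6.0% of the genes. A match is a description of the letters, and its absence says only that the letters are not in the window. The 8 matches that lie wholly upstream of the start site are shown 5′ to 3′ on the strand of the gene, with up to 20 bases on either side and the match in capitals. Those beginning with GC are the core read on the opposite strand.
Nfe2l2, chr2:75704875-75704913 (-): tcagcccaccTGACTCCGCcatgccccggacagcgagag
Gclm, chr3:122245403-122245451 (+): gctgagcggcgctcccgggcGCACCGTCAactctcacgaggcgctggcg
Prdx1, chr4:116685446-116685494 (+): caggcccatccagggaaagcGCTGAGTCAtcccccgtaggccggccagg
Txnrd1, chr10:82859094-82859142 (+): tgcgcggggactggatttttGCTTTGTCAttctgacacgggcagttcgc
Gstm5, chr3:107895792-107895840 (+): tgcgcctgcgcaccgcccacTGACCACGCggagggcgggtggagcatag
Mgst1, chr6:138140451-138140499 (+): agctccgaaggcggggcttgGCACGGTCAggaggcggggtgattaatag
Sod1, chr16:90220686-90220734 (+): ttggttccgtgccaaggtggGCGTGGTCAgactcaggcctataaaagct
G6pdx, chrX:74428909-74428957 (-): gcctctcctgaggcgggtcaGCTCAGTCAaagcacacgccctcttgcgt
The other 3 members with a match, Srxn1, Pgd and Me1, have it further on: in Me1 it begins 6 bases before the start site and runs over it, and in Pgd and Srxn1 it lies after it. Txnrd1 has 3 windows, and its match is in that of a downstream start. The match of Pgd is likewise in the window of a downstream start.

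Values are RPKM, reads scaled to the length of the feature and the size of the library, brought to a common median within each kind of library. Exon RPKM of total RNA is read as the RNA level, intron RPKM of 4sU RNA as RNA synthesis, and differences are log2 of shBmal1 minus shCTRL with the standard error (SE) of a limma fit that includes 24-h and 12-h time terms. A gene was called where the Benjamini-Hochberg adjusted p over all genes was under 0.05. Library totals recovered from the tables were 48873013 to 76260143 reads. Each library correlated with the median of the rest of its group at r = 0.970 to 0.998, and the least alike libraries were shCTRL at 30 h and shBmal1 at 34 h in every layer. Arntl, the targeted gene, had exon RPKM of 1.33 to 17.3 with a median of 8.74 in shCTRL and of 2.25 to 4.71 with a median of 3.95 in shBmal1. Its level was lower in shBmal1 at 9 of 12 time points (-0.92, SE 0.0809, adjusted p = 3.59e-09), while its intron signal in 4sU RNA was higher (0.57). Of 14 fibroblast markers 11 were in the tables, with summed RPKM of 6090 to 6880 in shCTRL and 5030 to 6100 in shBmal1. Among these 11, 4 were called higher and 7 lower in shBmal1, beside 34.4% and 33.1% of all genes. Of 8 epithelial markers 1 was in the tables, Krt14, at 2.18 to 4.44 RPKM in shCTRL and 7.2 to 13.3 in shBmal1. Markers of other cell types are given in the same way with the iron genes and in the closing section, and their part in any line difference was not tested. In bulk RNA fewer cells of a type and less RNA per cell cannot be told apart.

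Most of the members that differed in level between the lines were higher in shBmal1. Of 38 tested, 20 were higher and 7 lower in total RNA, beside 34.4% and 33.1% of the 10912 genes tested. The median difference of the members was 0.12, against 0.01 for all genes. At a size of at least 0.5 log2, 3 members were higher (Hmox1, Nqo1 and Ftl1) and 2 lower (Fth1 and Sod2), beside 5.15% and 8.28% of all genes. In 4 members all 12 shBmal1 libraries lay above all 12 shCTRL libraries (Hmox1, Ftl1, Gstm2 and Prdx6), and in 2 they lay below (Fth1 and Sod2), beside 5.87% and 7.08% of genes. Synthesis could be tested for 37 members, since Slc7a11 fell under the minimum for introns. Of these 11 were higher and 6 lower in shBmal1, beside 22% and 22.4% of 10509 genes. Of the 37, 2 were higher by at least 0.5 (Hmox1 and Mgst1) and 1 lower (Sod2), beside 2.77% and 2.49%. In 0 members did all 12 shBmal1 libraries lie above the control libraries in synthesis and in 2 (Fth1 and Sod2) below, beside 1.71% and 2.25%. All synthesis differences are relative to the typical gene. The deposited intron RPKM of shBmal1 4sU RNA had been divided by totals 1.35 to 1.39 times the exon totals, in the other groups by the same totals. With these values as deposited the median of all genes in 4sU RNA was -0.45. In that fit 0 members were called higher and 30 lower, with the shares of all genes not given here. In values that carry the shift of -0.45 of the median gene, Hmox1 (0.14), Mgst1 (0.13), Nqo1 (0.07) and Srxn1 (0.01) were not called.

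**Figure D1:**
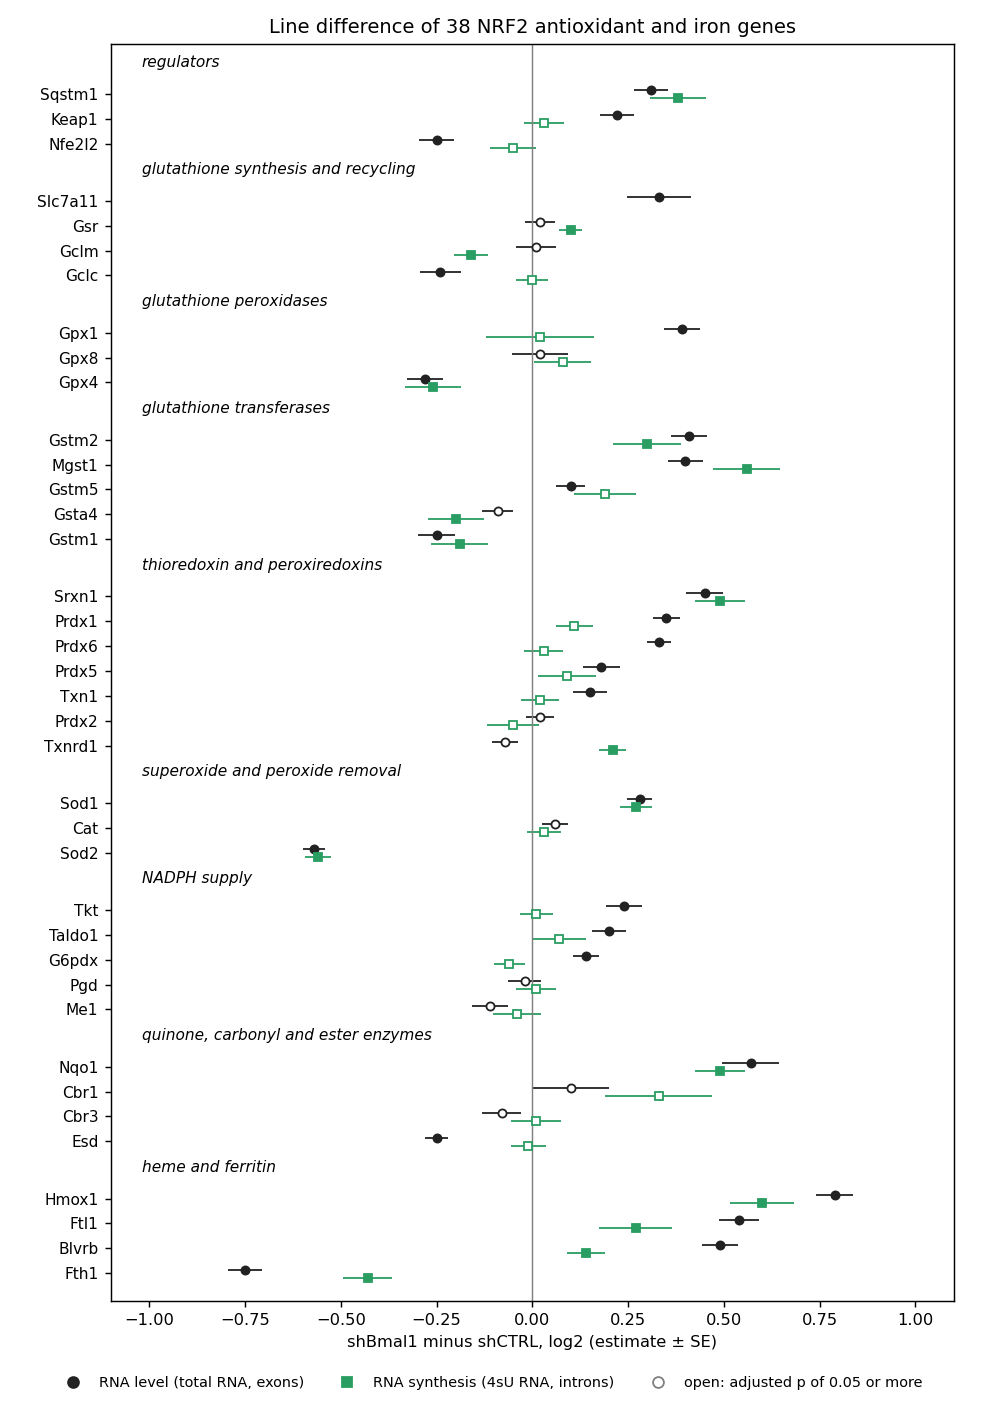
Line difference (shBmal1 minus shCTRL, log2, estimate ± SE over 24 libraries) of the 38 members by role, with black circles for the RNA level and green squares for synthesis; open symbols have an adjusted p of 0.05 or more. Hmox1 is the highest in level at 0.79 and Fth1 the lowest at -0.75, and Slc7a11 has no synthesis value.

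The intron signal is not a plain measure of synthesis for all members. Introns are removed soon after transcription, so intron RPKM is usually higher in newly made RNA, and over 9995 genes the deposited 4sU intron RPKM of shCTRL exceeded that of total RNA by a median of 0.66 log2. In 12 of 37 members it was lower instead, beside 11.5% of all genes. In 9 of the 12 (Fth1, Ftl1, Gpx1, Prdx2, Prdx6, Gstm1, Gstm5, Esd and Cat) it was lower in all 12 shCTRL cultures, beside 6.3% of genes. Fth1 was the farthest, with a median intron RPKM of 275 in 4sU RNA and 581 in total RNA (-1.04 ± 0.13, SD, n = 12), followed by Gpx1 (-0.95 ± 0.14) and Ftl1 (-0.82 ± 0.08). Gsta4 (-0.24 ± 0.20), Prdx5 (-0.09 ± 0.18) and Mgst1 (-0.03 ± 0.24) were lower on average but not in every culture. For all 12 genes the intron values are given as measured. How much of them stems from unspliced RNA was not tested.

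Nfe2l2 itself was lower in level in shBmal1 and did not differ detectably in synthesis. The gene lies at chr2:75675513-75704663 (GRCm38.p6). Its exon RPKM in total RNA was 70.2 to 81.4 with a median of 77.2 in shCTRL and 49.5 to 80.3 with a median of 63.9 in shBmal1. The ranges overlapped, and shBmal1 was higher at 1 of 12 time points. The difference was -0.25 (SE 0.045, adjusted p = 4.54e-05). In 4sU introns the RPKM was 2.59 to 3.6 (median 2.98) against 2.44 to 4.02 (median 2.8), a difference of -0.05 (SE 0.0605, adjusted p = 0.528).

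Keap1, the adaptor that marks NRF2 for destruction, lies at chr9:21229730-21239332. Its exon RPKM was 10.4 to 12.6 (median 11) in shCTRL and 10.5 to 14.8 (median 13.2) in shBmal1, which as deposited is a rise of 0.22 (SE 0.0444, adjusted p = 0.000197). The exon length behind these values, recovered from the table, was 3140 bases in shBmal1 total RNA and 3605 in the other 3 groups. On 1 length the difference was 0.02 (SE 0.0445, adjusted p = 0.648), so the call rests on the length. Its synthesis was 1.55 to 2.12 RPKM (median 1.79) against 1.4 to 2.22 (median 1.85), a difference of 0.03 (adjusted p = 0.614).

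Sqstm1 encodes p62, an autophagy receptor that can bind KEAP1 and take it away from NRF2. It was the third most abundant member by exon RPKM after the ferritins, at 371 to 478 (median 391) in shCTRL and 418 to 576 (median 500) in shBmal1. The lines overlapped, with shBmal1 higher at 11 of 12 times (0.31, SE 0.0431, adjusted p = 2.52e-06). Intron RPKM in 4sU RNA was 15.5 to 22.8 (median 17.1) against 15.8 to 29.2 (median 21.9) and rose by 0.38 (SE 0.0736, adjusted p = 0.00044). Of the 3 regulators, then, 1 was higher and 1 lower in level on 1 length, beside 34.4% and 33.1% of all genes as deposited. In synthesis 1 was higher, beside 22%.

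The iron and heme members held the largest differences, and the ferritin chains went opposite ways. Hmox1, the inducible heme oxygenase that opens the heme ring and frees its iron, lies at chr8:75093618-75100593. Its exon RPKM was 18.8 to 24.3 (median 21) in shCTRL and 31.1 to 45.7 (median 34.8) in shBmal1. Every shBmal1 library stood above every control library (0.79, 1.72-fold, SE 0.0485, adjusted p = 1.5e-11). Its introns in 4sU RNA gave 0.497 to 0.899 RPKM (median 0.619) against 0.663 to 1.35 (median 0.96), higher at 12 of 12 times though the ranges overlapped (0.60, SE 0.0829, adjusted p = 1.13e-05). Blvrb, biliverdin reductase B, had 30.7 to 45.2 exon RPKM (median 36.4) against 42.1 to 63 (median 51). It was higher at 12 of 12 times in level (0.49, SE 0.0468, adjusted p = 1.28e-08). In synthesis it rose less (0.14, SE 0.0499, adjusted p = 0.0286), a call lost when any 1 of 6 time points was left out (highest adjusted p = 0.08) and under upper quartile scaling (0.156).

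Ferritin light chain, Ftl1 (chr7:45457944-45459886), which promotes mineral formation inside the shell, was higher in shBmal1. Its exon RPKM was 994 to 1280 (median 1170) in shCTRL and 1280 to 2070 (median 1650) in shBmal1. The ranges met at about 1280 without overlap, the lowest shBmal1 value being that at 34 h (0.54, 1.46-fold, SE 0.0529, adjusted p = 1.69e-08). In 4sU introns it was 22.7 to 30.9 RPKM (median 25.2) against 17.2 to 46.5 (median 32.6), a rise of 0.27 (SE 0.0958, adjusted p = 0.0309) that was lost when any 1 of 6 time points was left out (0.19 to 0.32 over the 12 omissions, highest adjusted p = 0.108) and with no time terms (0.0799).

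Ferritin heavy chain, Fth1 (chr19:9980600-9985111), which oxidises the iron before storage, was lower. Its exon RPKM was 1280 to 1770 (median 1650) in shCTRL and 783 to 1150 (median 960) in shBmal1. All shBmal1 libraries lay below all control libraries (-0.75, shCTRL 1.68-fold higher, SE 0.0452, adjusted p = 9.65e-12). In 4sU introns it was 193 to 267 RPKM (median 231) against 130 to 191 (median 175), again with no overlap (-0.43, SE 0.0633, adjusted p = 2.65e-05). Ferritin genes have processed copies elsewhere in the genome, and the sources used here do not say how the counting placed reads shared with such copies, so the absolute levels of both chains are uncertain. Beside these results, 2 of 6 erythroid markers were in the tables (Hba-a1 and Tfrc, the latter also an iron uptake gene), both higher in shBmal1, with a summed RPKM of 1.79 to 3.65 in shCTRL and 4.42 to 7.98 in shBmal1, and their part in the result was not tested.

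**Figure D2:**
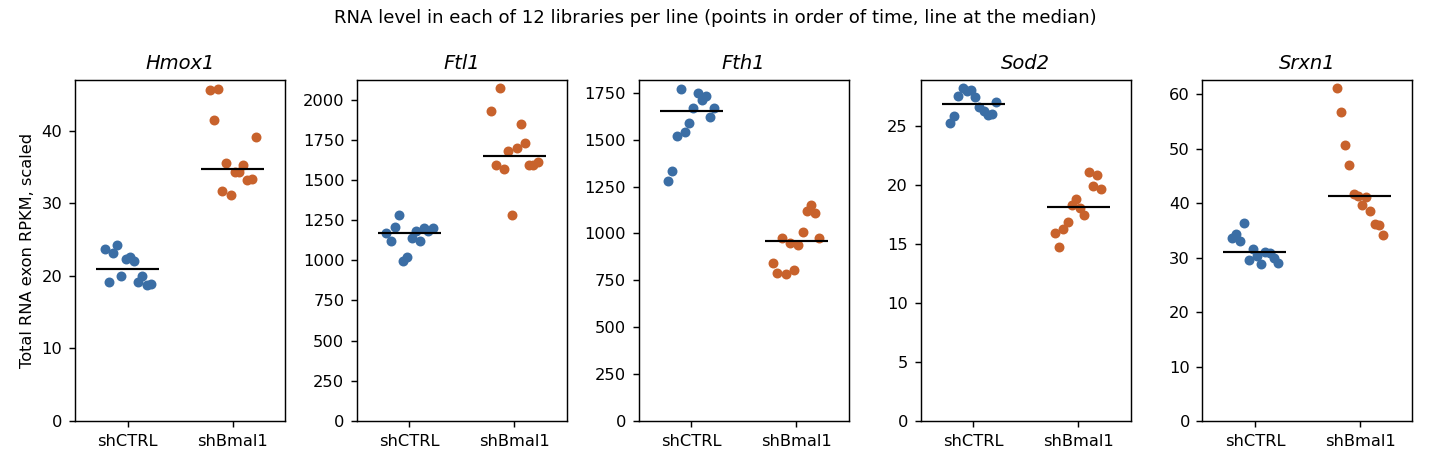
Exon RPKM of total RNA (scaled, linear axes from 0) in the 12 libraries of each line for 5 members, with points in order of time and a bar at the median. Hmox1 and Ftl1 sit higher in shBmal1, Fth1 and Sod2 lower, and Srxn1 falls over time in shBmal1 from 61.1 to 34.2.

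Among enzymes that remove superoxide and peroxide, the superoxide dismutases went opposite ways. Sod2, the mitochondrial manganese enzyme (chr17:13007839-13018119), had exon RPKM of 25.2 to 28.2 (median 26.8) in shCTRL and 14.7 to 21.1 (median 18.1) in shBmal1. No libraries overlapped (-0.57, SE 0.03, adjusted p = 9.42e-13). Synthesis fell too, from 2.79 to 3.11 RPKM (median 2.99) to 1.85 to 2.23 (median 2.05), also without overlap (-0.56, SE 0.0341, adjusted p = 2.77e-10). Sod1, the cytosolic copper and zinc enzyme, rose in level by 0.28 (SE 0.0322, adjusted p = 1.97e-07) and in synthesis by 0.27 (SE 0.0417, adjusted p = 4.74e-05). Catalase, Cat, differed by 0.06 in level (adjusted p = 0.137) and 0.03 in synthesis (adjusted p = 0.608).

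Of the quinone, carbonyl and ester enzymes, Nqo1 alone of 4 was called higher in level and Esd alone lower, beside 34.4% and 33.1% of all genes. Nqo1 (chr8:107388225-107403205) reduces quinones in a single step of 2 electrons and is a standard readout of NRF2. Its exon RPKM was 5.62 to 11.9 (median 8.64) in shCTRL and 8.14 to 18.6 (median 12.1) in shBmal1. The ranges overlapped because both lines fell over the series, and shBmal1 was higher at 12 of 12 times (0.57, SE 0.0737, adjusted p = 9.91e-07). Intron RPKM was low, 0.0812 to 0.237 (median 0.138) against 0.13 to 0.303 (median 0.198), and rose by 0.49 (SE 0.0657, adjusted p = 8.52e-06). Esd, an esterase that splits S-formylglutathione, fell in level by 0.25 on the log2 scale (adjusted p = 3.45e-07). The carbonyl reductases Cbr1 and Cbr3 gave 0.10 (adjusted p = 0.414) and -0.08 (adjusted p = 0.153).

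In the thioredoxin and peroxiredoxin group 5 of 7 members were higher in level and 0 lower, beside 34.4% and 33.1% of all genes, while 2 were higher in synthesis, near the 22% of all genes. Srxn1, sulfiredoxin, which repairs overoxidised peroxiredoxins, had exon RPKM of 28.9 to 36.4 (median 31) in shCTRL and 34.2 to 61.1 (median 41.3) in shBmal1, higher at 12 of 12 times (0.45, SE 0.0476, adjusted p = 5.56e-08). Its synthesis was 4.37 to 7.37 RPKM (median 5.83) against 6.72 to 11.3 (median 8.11) and rose by 0.49 (SE 0.0653, adjusted p = 8.51e-06). The peroxiredoxins Prdx1, Prdx6 and Prdx5, which reduce peroxides, rose in level by 0.35, 0.33 and 0.18, and thioredoxin, Txn1, by 0.15. None of these 4 was called in synthesis, with differences from 0.02 to 0.11. Txnrd1, thioredoxin reductase, showed the reverse: its level differed by -0.07 (adjusted p = 0.0568), while its synthesis rose from 0.769 to 0.903 RPKM (median 0.817) to 0.874 to 1.07 (median 0.941), higher at 12 of 12 times (0.21, SE 0.0348, adjusted p = 7.53e-05). Prdx2 differed by 0.02 in level (adjusted p = 0.611).

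The genes of glutathione synthesis and use were split. Gclc, the catalytic subunit of the rate-limiting ligase of glutathione synthesis, was lower in level (-0.24, SE 0.0545, adjusted p = 0.000533) with no difference detected in synthesis (0.00, adjusted p = 0.933). Gclm, its modifier subunit, was not called in level (0.01, adjusted p = 0.856) and was lower in synthesis (-0.16, adjusted p = 0.00809). Slc7a11, the cystine carrier that supplies it, was low in both lines, at 0.965 to 1.61 exon RPKM (median 1.23) and 1.08 to 2.27 (median 1.52), and rose by 0.33 (adjusted p = 0.00183). Gsr, which regenerates glutathione, gave 0.02 in level (adjusted p = 0.647) and 0.10 in synthesis (adjusted p = 0.0143, lost under upper quartile scaling). Of the peroxidases, Gpx1 rose in level by 0.39 (adjusted p = 3.24e-07). Gpx4, which protects membranes from lipid peroxides, fell by 0.28 on the log2 scale (adjusted p = 2.87e-05). In synthesis Gpx4 fell by 0.26 on the log2 scale (adjusted p = 0.00747). Its exon length was 946 bases in shBmal1 total RNA and 982 elsewhere, and on 1 length the difference was -0.33. Gpx8 was not called (0.02, adjusted p = 0.857).

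The glutathione transferases, which join glutathione to electrophiles, held 3 higher and 1 lower of 5 in level, beside 34.4% and 33.1% of all genes. Gstm2 had exon RPKM of 20.5 to 25.7 (median 24.3) in shCTRL and 25.7 to 35.7 (median 32.5) in shBmal1, without overlap (0.41, SE 0.0471, adjusted p = 1.67e-07). Its intron RPKM was 0.188 to 0.456 (median 0.377) against 0.305 to 0.638 (median 0.405), a rise of 0.30 (SE 0.0885, adjusted p = 0.0104). The microsomal enzyme Mgst1 rose in level by 0.40 (SE 0.0469, adjusted p = 2.69e-07). In synthesis Mgst1 went from 0.111 to 0.178 RPKM (median 0.151) to 0.177 to 0.289 (median 0.222), higher at 12 of 12 times (0.56, SE 0.0871, adjusted p = 4.55e-05). Gstm1 was lower in level (-0.25, adjusted p = 0.000143). Synthesis of Gstm1 (-0.19, adjusted p = 0.0454) and of Gsta4 (-0.20, adjusted p = 0.0335) was called lower, calls lost in 9 and 7 of the 12 omissions of a time point and with no time terms. Gsta4 was not called in level (-0.09, adjusted p = 0.0633). Gstm5 was called higher in level (0.10, adjusted p = 0.0354), a call lost in 7 of the 12 omissions of a time point and under upper quartile scaling. The Gstm genes are close paralogs, so reads shared between them make the opposite differences of Gstm1 and Gstm2 uncertain.

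Enzymes that supply NADPH, the reducing power for both systems, were higher in level in 3 of 5, beside 34.4% of all genes, and called in synthesis in 0 of 5, beside 22% higher and 22.4% lower. Tkt and Taldo1 of the pentose phosphate pathway rose by 0.24 and 0.20, and G6pdx, its entry enzyme, by 0.14 (adjusted p = 0.000193, 0.000559 and 0.00151). Pgd (-0.02) and Me1 (-0.11) were not called (adjusted p = 0.617 and 0.0556). Their synthesis differences ran from -0.06 in G6pdx to 0.07 in Taldo1 (adjusted p from 0.223 to 0.906), and the lowest unadjusted p was 0.141, in G6pdx.

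The intron values of total RNA and the exon values of 4sU RNA were fitted in the same way. In 4sU exons 19 members were higher and 6 lower of 38, beside 27.5% and 26.9% of genes; with the RPKM as deposited the split was 20 and 3. In total RNA introns 22 were higher and 5 lower of 37, beside 29.3% and 26.8%, and under upper quartile scaling 16 and 9. Feature lengths matter most here. For Gclm the recovered intron length was 10269 bases in shBmal1 total RNA and 19766 elsewhere, for Txnrd1 35209 and 60140, and for Cbr1 2349 and 1279. The deposited differences in total introns of 1.03, 0.98 and -0.84 became 0.14 (adjusted p = 0.131), 0.23 (adjusted p = 6.81e-05) and -0.03 (adjusted p = 0.869) on 1 length. In 4sU exons the lengths of Gstm5 (1068 bases) and Taldo1 (1345) in shCTRL differed from those elsewhere (930 and 1214), and their differences went from 0.35 to 0.15 and from 0.32 to 0.17.

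**Figure D3:**
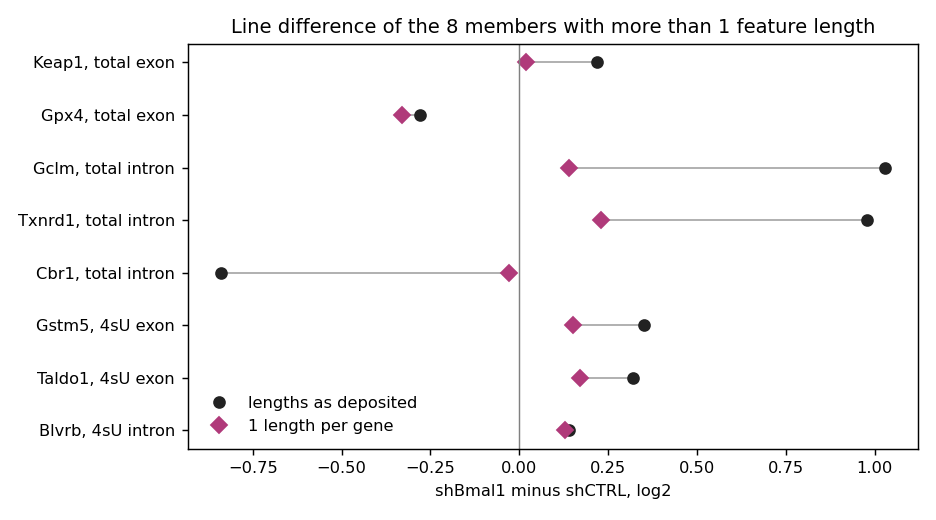
Line difference (shBmal1 minus shCTRL, log2) of the 8 members whose RPKM rest on more than 1 feature length, as deposited (black circles) and on 1 length per gene (diamonds), each in the layer affected. Gclm, Txnrd1 and Cbr1 in total RNA introns move towards 0 (1.03 to 0.14, 0.98 to 0.23 and -0.84 to -0.03), and Keap1 in total RNA exons moves from 0.22 to 0.02.

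The 4sU to total ratio, the log2 of exon RPKM in 4sU RNA over that in total RNA of the same culture, gives newly made RNA relative to RNA present. Within shCTRL 31 of 38 members lay below the median gene and 23 in the lowest 25% of genes, and in shBmal1 30 and 23 did. Gstm1 was the lowest member at -1.34 ± 0.09 (SD, n = 12), with 0.4% of genes below it, and Fth1 stood at -1.03 ± 0.06 and Ftl1 at -0.91 ± 0.09. High ratios in shCTRL were those of Cbr1 (0.55 ± 0.29), Nfe2l2 (0.31 ± 0.09), Txnrd1 (0.30 ± 0.04) and Slc7a11 (0.28 ± 0.18). By this ratio most enzymes and both ferritins thus lay on the side of little new RNA for their level. Nfe2l2 lay on the other side, with 75.7% of genes below it in shCTRL, between Txnrd1 (74.6%) and Cbr1 (90.7%). Whether anything other than new RNA enters the ratio was not tested.

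Between the lines the ratio was higher in shBmal1 in 8 members and lower in 4 of 38, beside 15.9% and 12.1% of genes. For Nfe2l2 it was 0.19 to 0.48 (median 0.28) in shCTRL and 0.32 to 0.86 (median 0.51) in shBmal1, higher at 12 of 12 times (0.24, SE 0.0379, adjusted p = 0.000133). Txnrd1 had 0.23 to 0.37 (median 0.29) against 0.30 to 0.58 (median 0.48), also higher at 12 of 12 times (0.18, SE 0.0271, adjusted p = 7.09e-05). Gsr had -0.22 to 0.11 (median 0.01) against 0.04 to 0.30 (median 0.13), higher at 11 times (0.15, adjusted p = 0.00591). The ratios of these 3 genes overlapped between the lines.

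Gpx1 was lower in ratio, at -1 to -0.82 (median -0.90) in shCTRL and -1.54 to -0.73 (median -1.05) in shBmal1, with shBmal1 higher at 6 of 12 times (-0.24, SE 0.0706, adjusted p = 0.0158); the call was lost with no time terms (0.0604). Gclm had -0.21 to 0.03 (median -0.05) against -0.49 to 0.07 (median -0.22), and Nqo1 -0.75 to -0.40 (median -0.60) against -0.92 to -0.49 (median -0.73). Both fell by 0.15 on the log2 scale (adjusted p = 0.04 and 0.0423), and the calls were lost in 9 and 7 of the 12 omissions of a time point. The deposited differences of Gstm5 (-1.11 to -0.58, median -0.88, against -0.97 to -0.35, median -0.62; 0.25) and of Keap1 (-0.14 to 0.14, median 0.01, against -0.55 to 0.07, median -0.19; -0.18) came to 0.06 and 0.01 on 1 length, neither called. Taldo1 likewise went from 0.12 to -0.03. The other members with a higher ratio were Txn1 (0.13, adjusted p = 0.0255, lost in 7 omissions), Esd (0.12, adjusted p = 0.0158, lost without 34 h) and Fth1 (0.10, adjusted p = 0.0174, lost without 28 h, without 34 h and with no time terms).

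**Figure D4:**
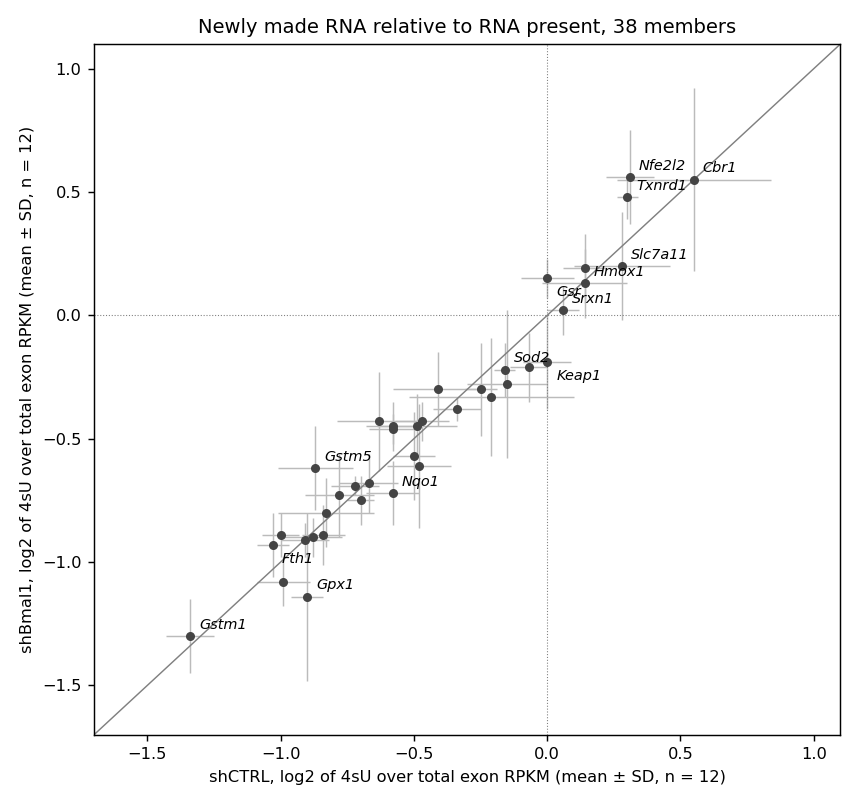
Mean log2 ratio of 4sU over total exon RPKM (± SD, n = 12 cultures) of each member in shCTRL (x axis) and shBmal1 (y axis), with the line of equal values and dotted lines at 0, the median gene. Most members lie below 0 in both lines, and Nfe2l2 and Txnrd1 lie above the line of equal values.

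The level beyond synthesis, exon RPKM of total RNA minus intron RPKM of 4sU RNA on the log2 scale per culture, was higher in shBmal1 in 11 and lower in 5 of 37 members, beside 19.5% and 24.7% of genes. Fth1 was lower, with 2.65 to 3.03 (median 2.77) in shCTRL against 2.06 to 2.63 (median 2.48) in shBmal1 and no overlap (-0.33, SE 0.0472, adjusted p = 1.96e-05). Txnrd1 was lower without overlap too, 5.31 to 5.49 (median 5.37) against 4.85 to 5.23 (median 5.11; -0.29, SE 0.0399, adjusted p = 1.19e-05). Gclc had 4.05 to 4.29 (median 4.17) against 3.82 to 4.08 (median 3.93; -0.24, adjusted p = 0.000132). Nfe2l2 was lower by -0.20 (adjusted p = 0.000727) and Esd by -0.24 (adjusted p = 0.00027). Without scaling, where shBmal1 intron values rest on the larger totals, the typical gene stood at 0.53 and these 5 turned positive. In that fit 36 members were called higher and 0 lower, with the shares of all genes not given here.

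On the other side stood Gpx1, with 3.43 to 3.95 (median 3.65) in shCTRL against 3.22 to 4.81 (median 3.92) in shBmal1 (0.37, SE 0.109, adjusted p = 0.00941, lost with no time terms at 0.0647), and Blvrb, with 4.92 to 5.64 (median 5.31) against 5.20 to 6.28 (median 5.62; 0.35, adjusted p = 0.00214). Ftl1 had 5.37 to 5.70 (median 5.47) against 5.37 to 6.22 (median 5.73; 0.28, adjusted p = 0.000994). Prdx6 had 4.57 to 4.90 (median 4.77) against 4.68 to 5.36 (median 5.05; 0.29, adjusted p = 0.000116), and Prdx1 5.09 to 5.40 (median 5.30) against 5.33 to 5.74 (median 5.51; 0.24, adjusted p = 0.000416). Tkt and G6pdx were higher by 0.23 and 0.20 (adjusted p = 0.000232 and 0.000259). Hmox1 (0.18), Gclm (0.17) and Taldo1 (0.13) passed by little (adjusted p = 0.0363, 0.0408 and 0.0467) and lost the call in 8, 9 and 9 of the 12 omissions. Keap1 went from 0.18 to -0.01 on 1 length.

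Over the 24 to 46 h series, 2 of 38 members (5.26%) had a called 24-h component in the level of shCTRL, Gsta4 and Nqo1, beside 3.6% of genes. In shBmal1 12 of 38 did (31.6%), beside 11.1% of genes. Gsta4, a transferase for lipid aldehydes (chr9:78191966-78209349), was at 17.8 RPKM at 24 h in shCTRL, 20.8 at 26 to 30 h, 11.4 at 40 h and 13.4 at 46 h. In shBmal1 it was at 17.5 at 24 h, 20.5 at 26 h, 11 at 42 h and 12.4 at 46 h. Both lines thus rose early, fell and began to turn upward again within the series. The amplitude in shCTRL was 0.45 log2 with a fitted peak at 28.1 h (SE 0.0403, adjusted p = 1e-06) and in shBmal1 0.36 with a peak at 28 h (adjusted p = 0.000161).

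Nqo1 fell through the series instead, from 11.9 RPKM at 24 h to 8.84 at 36 h and 5.62 at 46 h in shCTRL, and from 17.4 to 11.5 and 8.14 in shBmal1. The fitted amplitudes were 0.38 with a peak at 29.4 h (adjusted p = 0.0108) and 0.49 with a peak at 29.1 h (adjusted p = 0.00111). The series spans less than 1 day, so a steady fall and a 24-h wave are hard to separate. With a linear term of time added, Gsta4 in shCTRL kept its call (amplitude 0.36, adjusted p = 0.0185), Nqo1 did not (0.04, adjusted p = 1), and in shBmal1 the count of called members fell from 12 to 0, beside 0.101% of all genes. The shBmal1 amplitudes did not all shrink alike: with the linear term that of Gstm1 was 0.18, of Hmox1 0.18 and of Fth1 0.16, against 0.11 for Txn1 and 0.04 for Prdx1.

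The other shBmal1 calls had the same limit. Txn1 fell from 195 RPKM at 24 h to 119 at 46 h in shBmal1 and went from 143 to 129 in shCTRL (amplitudes 0.29 and 0.04, adjusted p = 0.00123 and 0.92). Srxn1 fell from 61.1 to 34.2 in shBmal1 and went from 33.7 to 29.1 in shCTRL (0.26 and 0.09, adjusted p = 0.00473 and 0.557). Sod2 rose from 15.9 to 19.6 in shBmal1 and went from 25.2 to 27 in shCTRL (0.16 and 0.06, adjusted p = 0.00453 and 0.585). For Srxn1 and Sod2 the gap between the lines was wider at 24 h than at 46 h, and for Txn1 it turned over. Each of these values is 1 library. The difference of the 24-h components was not called for Srxn1, Txn1 or Sod2 (adjusted p = 0.506, 0.117 and 0.0688). Esd had an amplitude of 0.16 in shBmal1 (adjusted p = 0.00623), and the others called were Taldo1, Fth1, Prdx1, Txnrd1, Hmox1 and Gstm1, with amplitudes of 0.15 to 0.21. Of these, Hmox1 and Gstm1 kept the call in 3 and 2 of the 12 omissions of a time point.

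**Figure D5:**
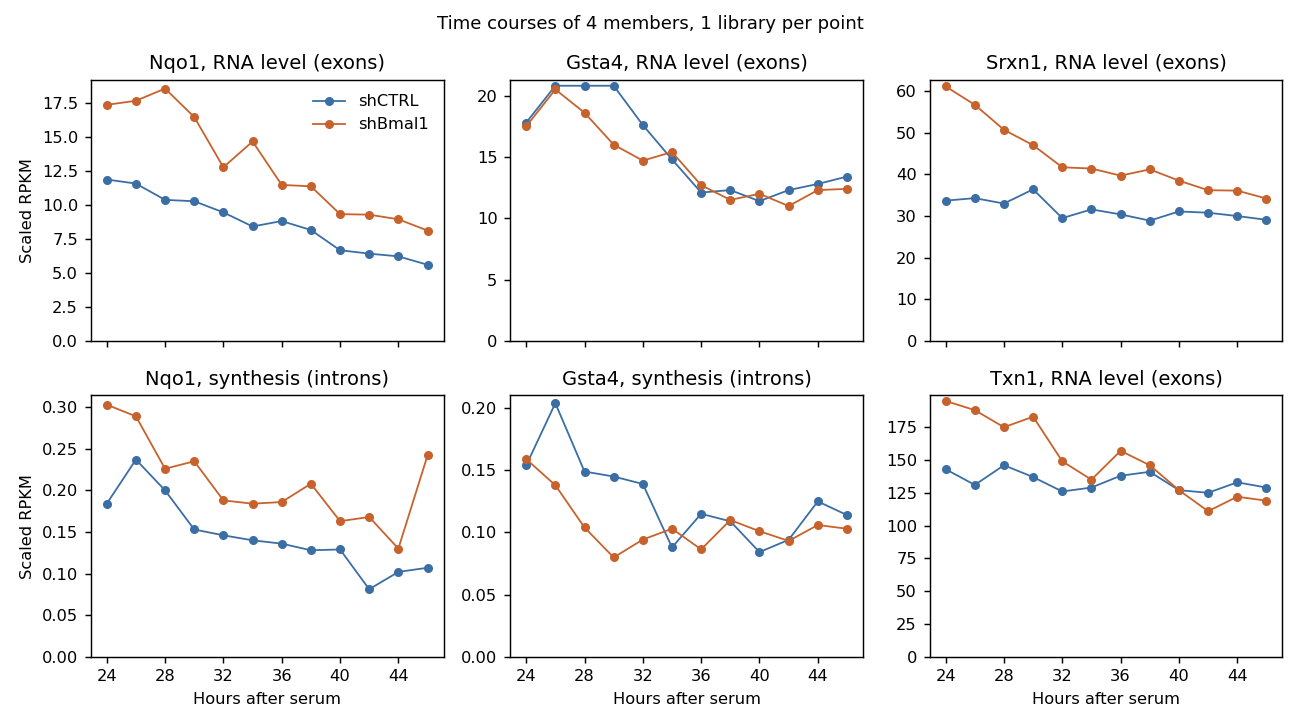
Scaled RPKM against hours after serum in shCTRL (blue) and shBmal1 (orange), 1 library per point, for the RNA level of 4 members and the synthesis of Nqo1 and Gsta4. Nqo1 falls in both lines, Gsta4 peaks at 26 to 30 h in shCTRL, and Srxn1 and Txn1 fall in shBmal1 from 61.1 to 34.2 and from 195 to 119.

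In synthesis Nqo1 and Gsta4 were again the 2 members called for a 24-h component in shCTRL, beside 1.12% of genes, with amplitudes of 0.39 (peak at 28.6 h, adjusted p = 0.0104) and 0.37 (peak at 26.9 h, adjusted p = 0.0388). In shBmal1 4 members were called, beside 5.82%: Nqo1 (0.30, adjusted p = 0.0247), Prdx5 (0.32, adjusted p = 0.0402), Gclc (0.17, adjusted p = 0.045) and Ftl1 (0.39, adjusted p = 0.0461). When single time points were left out, Nqo1 kept its call in 10 of 12 cases in shCTRL and 8 in shBmal1, Gsta4 in 2, Prdx5 in 4, Gclc in 2 and Ftl1 in 3. With the linear term 0 members were called in synthesis in either line, beside 0.428% of genes in shCTRL and 0.0571% in shBmal1. The amplitudes with that term were 0.28 for Nqo1 and 0.32 for Gsta4 in shCTRL, and 0.29 for Nqo1, 0.39 for Prdx5, 0.14 for Gclc and 0.50 for Ftl1 in shBmal1, so the calls were lost without the amplitudes falling throughout. A 12-h component was called by limma in 0 members in level, beside 0% of genes in shCTRL and 0.0183% in shBmal1, and in 0 in synthesis, beside 0% in both lines. Unadjusted p under 0.05 was reached by 2 members in shCTRL and 20 in shBmal1 in level, and by 2 and 8 in synthesis. The share of all genes at that unadjusted threshold is not given here, so these counts show nothing particular to the members. Without the 32 h libraries 13 of 38 members had a called 12-h component in the level of shBmal1, beside 18.1% of all genes. In its synthesis 3 of 37 then did, beside 6.66%. Leaving out 26 h gave 9 of 38 in level, beside 12.1%. The difference between the lines in the 24-h component was called by limma in 0 members in level and 0 in synthesis, beside 0.806% and 0.285% of genes. At an unadjusted p under 0.05 there were 7 and 9 members, again with no share of all genes given.

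Genes of the same pathways outside the member list were called about as often as genes at large. Of 118 tested from 158 listed, 40 were higher and 38 lower in level, beside 34.4% and 33.1% of all genes, so the counts are near the background. The median was 0.03, and the difference from the members was not tested. Among partners and antagonists of NRF2, 2 were higher and 6 lower of 14, led by Sesn2, a stress-induced regulator that promotes KEAP1 removal, at 18.6 ± 1.29 RPKM in shCTRL and 39.9 ± 5.68 in shBmal1 (SD, n = 12; 1.09, adjusted p = 4.17e-12), Trp53inp1 (0.57) and Sesn1, another sestrin (-0.47). Other NRF2-linked enzymes and transporters gave 12 higher and 12 lower of 32, led by the aldehyde dehydrogenase Aldh3a1, at 76.2 ± 14.5 against 15.9 ± 3.39 RPKM (-2.26, adjusted p = 3.12e-15), Epha2 (1.22) and Mgst2 (1.01). Other glutathione, thioredoxin and peroxide enzymes gave 13 higher and 5 lower of 33, led by Oplah, which recycles 5-oxoproline to glutamate (-2.06), the selenium carrier Selenop (-0.89) and Chac1, which degrades glutathione (0.85, at 13.5 ± 2.32 against 30.8 ± 35.1 RPKM, an SD above the mean). Other iron and heme genes gave 13 higher and 15 lower of 39, led by the metal reductase Steap1 (0.82), Cpox of heme synthesis (-0.75) and Tfrc, the transferrin receptor (0.74, SE 0.1, adjusted p = 1.66e-06).

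In the level of shCTRL 4 of these 118 genes had a called 24-h component, near the 3.6% of all genes. Ephx1, an epoxide hydrolase, had an amplitude of 0.27 with a peak at 25.9 h and Gsto1, a glutathione transferase, of 0.19 with a peak at 27.5 h, both near the peak of Gsta4. Slc39a14, a metal importer, had 0.20 with a peak at 37.3 h and Lcn2, which binds iron-carrying siderophores, 0.50 with a peak at 38.7 h (adjusted p = 0.00194, 0.0168, 0.0193 and 0.0173). In shBmal1 16 of the 118 were called, beside 11.1% of all genes.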

How the data were processed

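The members were chosen by name, and members, role groups and pathway lists were all chosen with earlier results of these data known. The authors deposited 1 exon and 1 intron table of RPKM for 48 libraries; per the submitters' processing notes, Trim Galore and HOMER 4.11.1 were used on mm10 (GRCm38.p6), while no source used here names the aligner. All per-sample columns were matched to a sample by its label (0 unmatched). Reads per library and feature lengths were recovered from RPKM values that are whole multiples of 1 read; exon lengths were recovered for 11308 genes in all 4 groups (lengths equal within 0.1%). Intron values in shBmal1 4sU RNA had been divided by totals 1.35 to 1.39 times the exon totals, in the other 36 libraries by the same totals.

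RPKM were scaled within each layer (median ratio to the geometric mean library), and log2(RPKM + 0.1) for exons or + 0.02 for introns was tested with limma 3.58.1 in R on the 24 libraries of a layer, keeping genes whose mean RPKM reached 0.5 (exon) or 0.1 (intron). Fold changes are on this scale and understate the change of low genes. The design had a mean, 24-h and 12-h terms per line (10 coefficients, 14 residual degrees of freedom). Named in full are the regulators and ferritins, the 8 members with the largest called difference in each of 4 layers, and up to 6 called per rhythm test; of other pathway genes, the 3 largest called per list and those called rhythmic. The fit and the recovery of totals were tested on simulated data. Alternatives were other scalings, pseudocounts, filters, 1 length per gene, variance and time models, and each time point left out.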

Additional observations from a re-analysis of the deposited data

How the results depend on the processing

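The total number of members called for line differences in total exons, 4sU exons, total introns and the 4sU/total ratio stayed within 1.5 times under every scaling, pseudocount, filter, length, variance and time model tried, but its split moved: 3 in place of 6 were lower in 4sU exons as deposited, and 9 in place of 5 in total introns under upper quartile scaling. With RPKM as deposited the median of all genes shifted by -0.45 in 4sU introns, where shBmal1 values rest on larger totals. In that fit 30 members were called, all lower, in place of 17. The level beyond synthesis shifted by 0.53 and gave 36, all higher, in place of 16. The shares of all genes are not given here for either. As deposited, with the shift of all genes left in, the 4sU intron differences of Gsr (-0.37), Txnrd1 (-0.25), Gstm2 (-0.15), Sod1 (-0.21), Sqstm1 (-0.10), Ftl1 (-0.21) and Blvrb (-0.33) reversed. So did the level beyond synthesis of Nfe2l2 (0.36), Gclc (0.30), Txnrd1 (0.26), Fth1 (0.24) and Esd (0.32). On 1 length Keap1 (ratio 0.01, level beyond synthesis -0.01) and Taldo1 (ratio -0.03) reversed. For rhythm, the linear term gave 1 member in shCTRL and 0 in shBmal1 in level, beside 0.99% and 0.101% of all genes. In synthesis it gave 0 and 0, beside 0.428% and 0.0571%. The filter 4 times higher gave 0 in shCTRL synthesis, beside 1.12%. Deposited RPKM gave 2 members with a 12-h component in shBmal1 level, beside 1.41%, and upper quartile scaling 1 differential in level, beside 1.15%. Leaving out a time point gave 24-h counts in level of 1 to 2 in shCTRL, beside 1.85 to 4.3% of all genes. In shBmal1 it gave 5 to 15 of 38 members, beside 3.44 to 16.7%, with 5 without 40 h (3.44%) and 6 without 38 h (6.58%). In synthesis the counts were 0 to 2 and 0 to 8 of 37, beside 0.438 to 1.98% and 1.25 to 14.7%. The 12-h counts in shBmal1 were 0 to 13 of 38 in level, beside 0 to 18.1%, and 0 to 3 of 37 in synthesis, beside 0 to 6.66%. There was 0 to 1 differential in synthesis, beside 0.0761 to 2.35%. The ratio gave 8 to 13 members, with the shares of all genes not given here. The causes were not tested. With the time point as replicate block, 27 members were called in level and 14 in synthesis, with the shares of all genes in that fit not given here. Same-time libraries of the lines correlated over 0.1 in only 9 of 12 pairs in level (median r = 0.24), so a pairing beyond the shared time was not established.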

Other observations

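Of markers of other cell types, 4 of 8 leukocyte and macrophage genes were in the tables, with a summed exon RPKM of 14.2 to 21.5 in shCTRL and 17.9 to 24 in shBmal1. Muscle markers (2 of 6) summed to 4.6 to 8.81 and 2.22 to 3.59, with Mymx lower in shBmal1 (mean 5.31 against 1.08) and Des higher (0.783 against 1.72). Adipocyte markers (2 of 5) summed to 6.91 to 9.45 and 5.48 to 10.2, and the 1 hepatocyte marker of 4 to 3.6 to 5.21 and 2.12 to 4.54. The 1 endothelial marker of 5, Cdh5, was at 0.244 to 0.547 and 0.315 to 0.872 RPKM.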
